A study of Mus musculus with 15 samples.

Results

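The imprinted growth genes Nnat, Plagl1, Peg3, Igf2, H19, Dlk1, Mest, Cdkn1c, Gnas and Grb10 were followed in gastrocnemius, a fast-twitch muscle of the calf, from 15 male C57BL/6NHsd mice. All probe sets whose gene symbol in the platform annotation is one of these 10 genes were taken, which gave 10 of the 13319 genes and 19 of the 22690 probe sets on the array, 18 with a single symbol and 1 that the annotation gives to both H19 and Mir675, a microRNA gene lying within H19. The genes were chosen by the lower intensities of Nnat and Plagl1 in old CR than in old mice, so the values of all 10 genes in that comparison are given as a description, with no p-value for any of them. Where calls in it are counted, nothing is read from the count. The 3 groups were old CR mice (25 months, on calorie restriction (CR) for life), old mice (25 months, fed the control diet) and young mice (5 months, fed the same diet), with 5 mice and 1 array per mouse in each. The control diet supplied 84 kcal per week, about 15% below free feeding, and the intake of CR mice differed from it by 26%, with protein, vitamins and minerals enriched. All mice were housed singly.

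An imprinted gene is read mainly from the copy inherited from a single parent. The copies differ in DNA methylation at CpG dinucleotides of a control region, laid down in the egg or the sperm. Many imprinted genes act on growth before and after birth, those read from the paternal copy mostly promoting it and those read from the maternal copy mostly restraining it, and several are strongly expressed in fetal muscle and fall to low levels in the adult. Of the 10 genes, Nnat, Plagl1, Peg3, Igf2, Dlk1 and Mest are read from the paternal copy and H19 and Cdkn1c from the maternal copy. Grb10 is maternal in most tissues outside the brain, and Gnas is biallelic in most tissues but has imprinted alternative promoters. The array probes do not separate the parental copies, so the values are the sum of both.

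The promoters of Nnat and Plagl1, the genes that led to the choice of this set, and that of Peg3 are shown because imprinting acts through CpG and because PLAGL1 is a DNA-binding protein. Each runs from 250 bases before to 50 bases after the transcription start in RefSeq (GRCm38.p6). In the sequences of Nnat (chr2:157559828-157560127, + strand) and Plagl1 (chr10:13090582-13090881, + strand) capitals mark each CpG. In that of Peg3 (chr7:6730370-6730669, - strand) capitals mark GGGGCCCC, a PLAGL1 core motif, and TGACGTCA, the cyclic AMP response element (CRE).
Nnat: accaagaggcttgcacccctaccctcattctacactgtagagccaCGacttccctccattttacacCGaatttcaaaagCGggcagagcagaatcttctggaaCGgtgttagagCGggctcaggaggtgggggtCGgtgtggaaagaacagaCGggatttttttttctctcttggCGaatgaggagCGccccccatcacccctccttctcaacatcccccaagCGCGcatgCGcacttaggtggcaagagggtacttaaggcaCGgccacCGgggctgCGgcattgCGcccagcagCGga
Plagl1: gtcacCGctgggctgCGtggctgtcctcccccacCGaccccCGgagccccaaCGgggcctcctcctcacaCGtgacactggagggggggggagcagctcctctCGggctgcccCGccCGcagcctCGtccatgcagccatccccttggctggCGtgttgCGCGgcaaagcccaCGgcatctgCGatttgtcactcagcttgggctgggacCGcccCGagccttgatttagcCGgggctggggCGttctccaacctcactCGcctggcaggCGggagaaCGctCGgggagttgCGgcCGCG
Peg3: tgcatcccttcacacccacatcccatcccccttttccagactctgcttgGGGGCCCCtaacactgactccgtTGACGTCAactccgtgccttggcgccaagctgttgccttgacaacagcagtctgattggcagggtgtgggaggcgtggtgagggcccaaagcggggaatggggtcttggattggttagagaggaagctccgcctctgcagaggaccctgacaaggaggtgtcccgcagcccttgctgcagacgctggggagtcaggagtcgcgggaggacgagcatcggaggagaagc
The Nnat window held 17 CpG and the Plagl1 window 26, against a median of 7 over all 32851 promoters of that length. RefSeq promoters were found for 8 of the 10 genes, 17 windows in all, and 15 of the 17 held more CpG than that median. On either strand, GGGGCCCC was in the Peg3 window alone among the 17 and in 1.08% of all promoters, and TGACGTCA likewise in that window alone and in 1.79% of all. The GC box GGGCGG was in 9 of the 17 (Plagl1, Igf2, Mest, Gnas and Grb10) and in 35.66% of all, and TATAAA in 3, all of Gnas, and in 13.62% of all. Some windows of the same gene overlap, as at Gnas and Mest, so a motif or CpG can be counted more than once. The motifs were searched as letters and are not binding sites.
The H19 probe set is also annotated to miR-675, whose mature sequences (RefSeq, chromosome 7, - strand) follow with the seed, bases 2 to 8, in capitals.
miR-675-5p: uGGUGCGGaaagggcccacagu
miR-675-3p: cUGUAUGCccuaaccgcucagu
The 2 arms have different seeds.

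The values are linear intensities, in arbitrary units, of short probes that lie mostly near the 3' end of a transcript. Each array was scaled by the authors to a mean of 500 once the lowest and highest 2% of values were trimmed off. The 7 muscle fiber markers of a fixed list (actins, creatine kinase and fast myosins among them) were all among the brightest probe sets, the 48.1% with the highest mean. The log2 difference between the 3' and 5' control probe sets of Gapdh and Actb, a sign of how far RNA or cDNA reached, was highest in old mice. Its mean over both genes was -0.30 ± 0.08 in old CR, 0.13 ± 0.09 in old and -0.18 ± 0.14 in young mice (SD, n = 5 each). Old CR and old mice did not overlap in it, while young replicate 3 at 0.0561 stood above old replicate 5 at 0.0493. Its part in any difference between old CR and old mice cannot be told apart from that of the diet. Between old and young mice it differed too, and its part there is hard to tell apart from that of age. By an exact two-sided permutation test old CR differed from old with p = 0.00794 for Gapdh and for Actb (adjusted p = 0.0159 over 6 tests). By the same exact test old differed from young with p = 0.00794 for Actb (adjusted p = 0.0159) and p = 0.0397 for Gapdh (adjusted p = 0.0596). A member with more than 1 probe set is led by its brightest one. In bulk muscle, fewer cells of a type and less RNA per cell cannot be told apart.

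Nnat encodes neuronatin, a small membrane protein of the endoplasmic reticulum that affects calcium stores and is expressed in brain and in fat. Its single probe set had 87.7, 47.9, 129.9, 142.3 and 236.9 in old CR mice (replicates 2, 3, 5, 6 and 7). It had 982.6, 686.1, 678.1, 1701.8 and 623.8 in old mice, and 461, 350.7, 338.2, 969.9 and 366.6 in young mice. All 5 old CR mice lay below every old and every young mouse, whereas young replicate 4 was high and reached into the old range. The means were 129 ± 70.9 in old CR, 934 ± 451 in old and 497 ± 269 in young mice (SD, n = 5 each). The log2 difference was -2.94 ± 0.42 (SE) for old CR against old, 7.66-fold lower by geometric means, -2.01 ± 0.42 for old CR against young and 0.93 ± 0.42 for old against young. These have no p-value, since each shares arrays with the comparison that led to the choice of the gene.

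Plagl1 (Zac1) encodes a zinc finger transcription factor that restrains cell division and sits at the head of a network of imprinted genes. Its brighter probe set had 250.1, 179, 138.3, 71.1 and 219.3 in old CR mice, 629.8, 638.1, 445.7, 412.3 and 355.6 in old mice, and 153.9, 144.1, 470.8, 202.8 and 280.1 in young mice. The old CR mice lay below all old mice. Of them, 2 of 5 also lay below every young mouse and the other 3 among the young, of which replicate 3 stood highest. The log2 difference was -1.62 ± 0.37 for old CR against old, -0.52 ± 0.37 for old CR against young and 1.09 ± 0.37 for old against young (SE). The second Plagl1 probe set was dim, with means of 14.8 ± 9.94 in old CR, 24.2 ± 14.4 in old and 14.7 ± 4.76 in young mice. Its groups overlapped, and its log2 difference of -0.77 ± 0.48 for old CR against old had the sign of the brighter one.

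Peg3, a second imprinted zinc finger protein, which takes part in stress and cell death signaling and is found in muscle stem cells, had 3 probe sets that did not run alike. The brightest averaged 406 ± 52.1 in old CR, 633 ± 278 in old and 456 ± 166 in young mice (SD, n = 5 each), with 1103.6 in old replicate 4 the highest. The groups overlapped. Its log2 difference was -0.55 ± 0.28 for old CR against old, 0.45 ± 0.28 for old against young (limma adjusted p = 0.456) and -0.10 ± 0.28 for old CR against young (adjusted p = 0.924). In the paper's own model this brightest probe set is listed as higher in old mice, among genes activated by p53. The next probe set averaged 392 ± 38.5, 394 ± 121 and 413 ± 71.6 in old CR, old and young mice, with log2 differences of 0.05 for old CR against old and -0.11 for old against young. The remaining dim one had 0.24 and 0.32 in those comparisons.

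Igf2, a growth factor of the insulin family that drives fetal growth and muscle differentiation, and H19, a long noncoding RNA, share a cluster and enhancers and are read from opposite copies. The brighter Igf2 probe set had 422.2, 517.8, 384.7, 479 and 335.7 in old CR mice, 542.7, 559.3, 627.1, 397.2 and 566.2 in old mice, and 551.6, 593.3, 656.8, 839.2 and 433.6 in young mice. The ranges of all 3 groups overlapped, with the old CR mice lowest on average. Its log2 difference was -0.33 ± 0.19 for old CR against old, -0.51 ± 0.19 for old CR against young (adjusted p = 0.284, 3 of 5 old CR mice below every young mouse) and -0.17 ± 0.19 for old against young (adjusted p = 0.695). The dim second Igf2 probe set had differences of -0.02, -0.35 and -0.34 in the same order.
The H19/Mir675 probe set had 5145.3, 3919.5, 3801.2, 4119.5 and 4163.5 in old CR mice, 1893.9, 1745.8, 2001.5, 2540.9 and 4677.4 in old mice, and 3466.8, 5115.5, 4639.8, 5167.9 and 4492.9 in young mice. Of the old mice, 4 of 5 lay below every young and every old CR mouse, and old replicate 5 stood among the other groups. The log2 difference was 0.81 ± 0.23 for old CR against old, -0.92 ± 0.23 for old against young (adjusted p = 0.0945) and -0.11 ± 0.23 for old CR against young (adjusted p = 0.901). Without old replicate 5 the old to young difference was -1.16 with an adjusted p of 0.0284. With the 3' to 5' difference as a covariate it was -0.76 with an adjusted p of 0.789. The adjusted p was 0.181 with only the groups compared and 0.266 with a block for the replicate number. Over all 15 arrays H19 did not pass the test, although its adjusted p was the smallest of the 16 probe sets tested between old and young mice. The paper, with another normalization and its own model, lists this H19 probe set as lower in old mice, with most of the change prevented by CR.

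Dlk1, a membrane protein related to Notch ligands that restrains fat cell formation, averaged 263 ± 48.9 in old CR, 256 ± 49.2 in old and 274 ± 66.2 in young mice. Its log2 differences were 0.04 ± 0.19, -0.09 ± 0.19 (adjusted p = 0.866) and -0.05 ± 0.19 (adjusted p = 0.951) for old CR against old, old against young and old CR against young. Mest (Peg1), a hydrolase-fold protein that rises in growing fat, had 251, 399.8, 326, 410.5 and 377.1 in old CR mice, 840, 680.5, 637.7, 444 and 454.5 in old mice, and 465.7, 540.8, 397.9, 635.1 and 432 in young mice. The old CR mice lay below all old mice and overlapped the young. Its log2 difference was -0.77 ± 0.21 for old CR against old, 0.28 ± 0.21 for old against young (adjusted p = 0.537) and -0.49 ± 0.21 for old CR against young (adjusted p = 0.36).

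Cdkn1c, an inhibitor of cyclin-dependent kinases that takes myoblasts out of the cell cycle, averaged 415 ± 169 in old CR, 315 ± 129 in old and 350 ± 81.7 in young mice, and its groups overlapped. Its log2 differences were 0.40 ± 0.34 for old CR against old, -0.22 ± 0.34 for old against young (adjusted p = 0.805) and 0.18 ± 0.34 for old CR against young (adjusted p = 0.888).

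**Figure D1:**
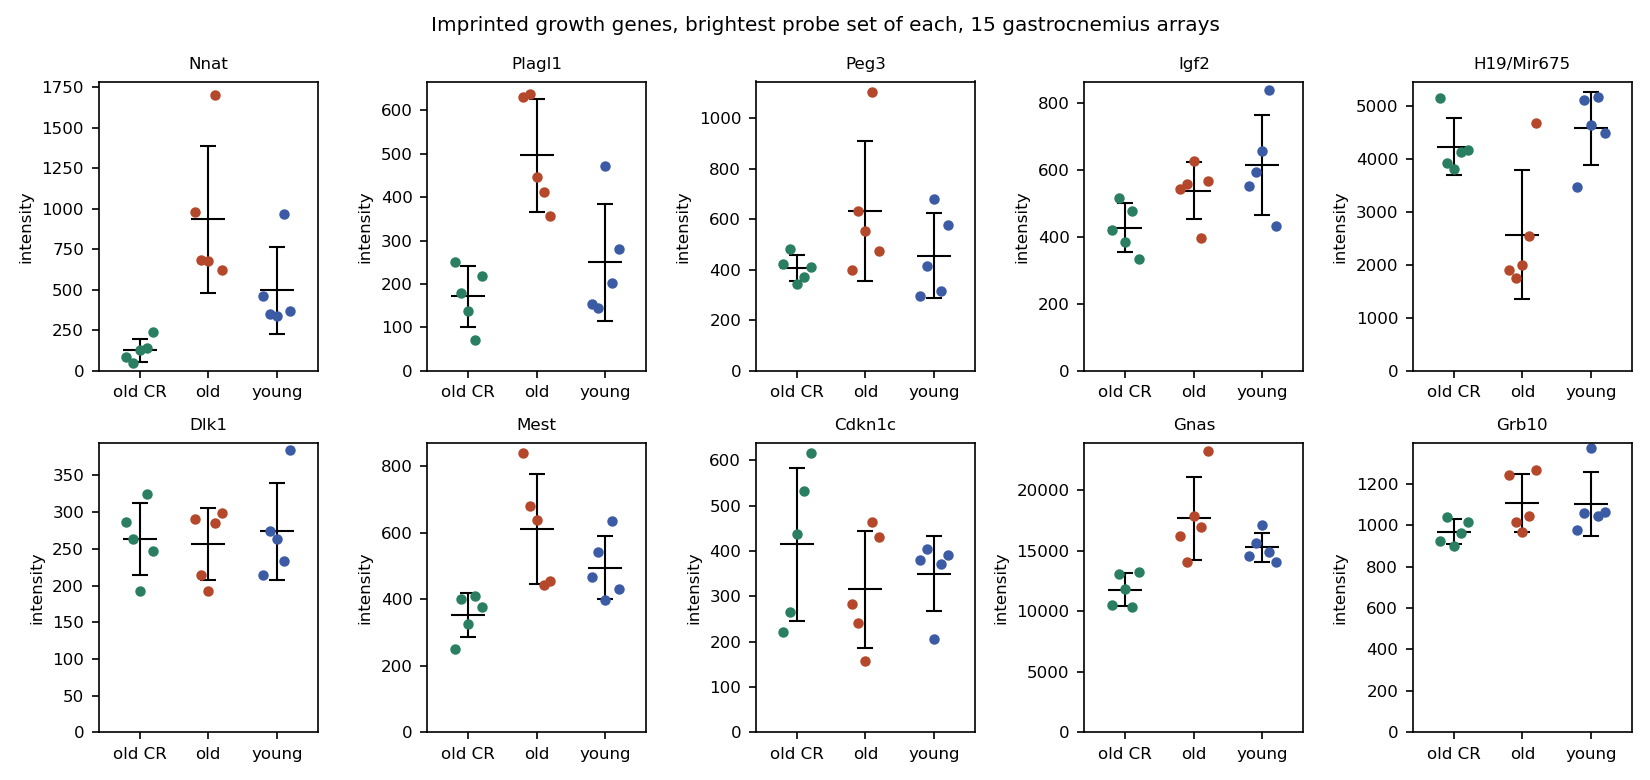
Intensity (linear, arbitrary units, vertical axis from 0) of the brightest probe set of each of the 10 genes in old CR, old and young mice, with 1 point per mouse and the mean and SD as lines. Nnat, Plagl1, Mest and Gnas show 5 old CR mice below all 5 old mice, and H19/Mir675 shows 4 of 5 old mice at the bottom.

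Gnas encodes the alpha subunit of the G protein Gs, which links receptors to adenylyl cyclase. Its brightest probe set had 10521.6, 13039.4, 11794.9, 10324.1 and 13223.3 in old CR mice, 16189.8, 14045.3, 17875.6, 16965 and 23236.6 in old mice, and 14586.2, 15625.7, 17089.6, 14909.8 and 14085.1 in young mice. Every old CR mouse lay below every old and every young mouse, and 1.89% of all probe sets were likewise lower in old CR without overlap with young. The log2 difference was -0.57 ± 0.14 for old CR against old, -0.38 ± 0.14 for old CR against young (adjusted p = 0.285) and 0.19 ± 0.14 for old against young (adjusted p = 0.532). A second, dimmer Gnas probe set ran the other way, averaging 260 ± 55.2 in old CR, 170 ± 43 in old and 228 ± 51.2 in young mice, with log2 differences of 0.63 ± 0.21, -0.43 ± 0.21 (adjusted p = 0.342) and 0.20 ± 0.21 (adjusted p = 0.769) for old CR against old, old against young and old CR against young. The other 2 Gnas probe sets, both dim, averaged between 11.2 and 28.5.

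Grb10 encodes an adaptor that binds the insulin and IGF1 receptors and lowers their signal. Its brightest probe set averaged 968 ± 59.7 in old CR, 1107 ± 138 in old and 1103 ± 154 in young mice, with log2 differences of -0.19 ± 0.12, 0.01 ± 0.12 (adjusted p = 0.988) and -0.18 ± 0.12 (adjusted p = 0.614) for old CR against old, old against young and old CR against young. The 2 dimmer Grb10 probe sets were both lower in old mice. One averaged 172 ± 52.4 in old CR, 109 ± 32.9 in old and 197 ± 64.8 in young mice, and the other 131 ± 24.7, 84.4 ± 35.4 and 138 ± 32.3. Their old against young differences were -0.83 ± 0.32 (adjusted p = 0.224) and -0.77 ± 0.24 (adjusted p = 0.15), neither past the test.

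**Figure D2:**
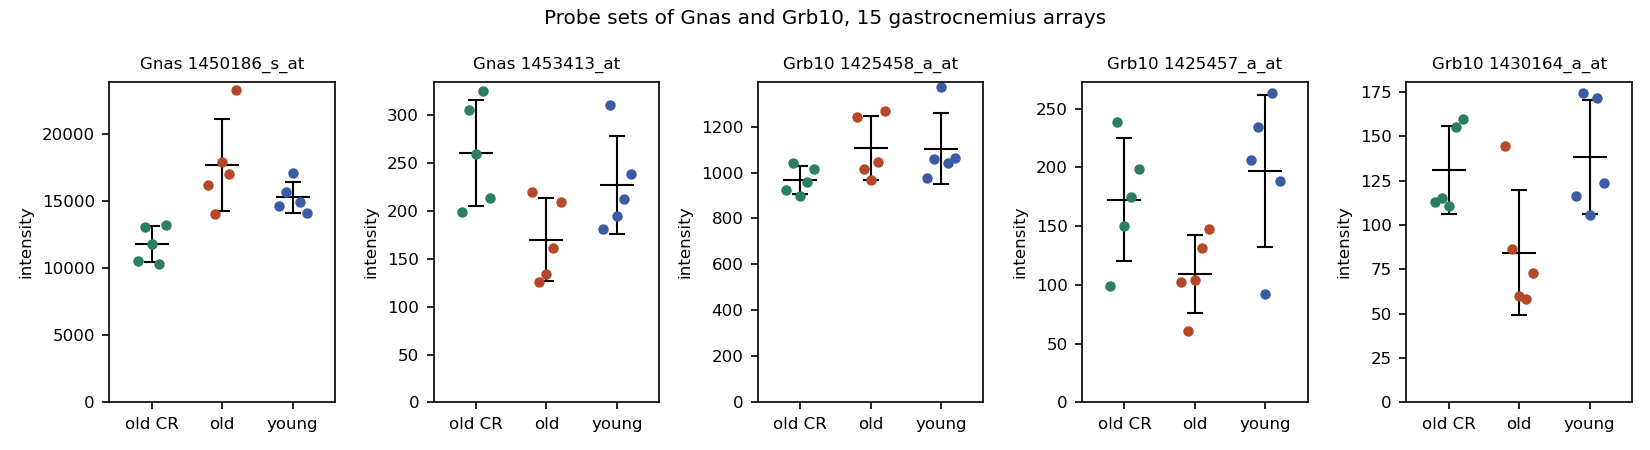
Intensity (linear, arbitrary units, vertical axis from 0) of 2 probe sets of Gnas and 3 of Grb10 in old CR, old and young mice, with 1 point per mouse and the mean and SD as lines. The brightest probe set of Gnas is lowest in old CR mice, while the dimmer ones of both genes are lowest on average in old mice.

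Over the 16 probe sets of the 8 genes other than Nnat and Plagl1, none was called in old against young mice by limma (adjusted p under 0.05), where 0.265% of all 22626 probe sets were. At an unadjusted p under 0.05 there were 3 of 16, the H19/Mir675 probe set and the 2 dimmer ones of Grb10, all lower in old mice, against 15.5% of all probe sets (9.25% lower). In old CR against young mice none was called either, against 0.0884% of all, and 3 of 16 had an unadjusted p under 0.05, Igf2, Mest and Gnas by their brightest probe sets, all lower in old CR mice, against 12.1% of all (6.26% lower). In the comparison that led to the choice, old CR against old, 4 of 19 probe sets were lower at an adjusted p under 0.05 (Nnat, Plagl1, Mest and Gnas) and none higher, where 4.87% of all were called, 2.17% lower and 2.7% higher. Nnat and Plagl1 are the values that chose the set, so the choice itself raised the count, which is not read against these shares. The same 4 were lower without overlap between the groups, as were 4.04% of all. With the 3' to 5' difference as a covariate neither these 4 nor any other of the 22626 probe sets was called, and the log2 difference of Nnat was -4.04 and that of Plagl1 -0.72. By the brightest probe sets of the 8 genes other than Nnat and Plagl1, 4 were lower and 4 higher in old than in young mice, with a median log2 difference of -0.04 (-0.06 over all probe sets), and 7 were lower in old CR than in young mice, with a median of -0.14 (-0.01 over all). Of all probe sets, 57% were lower in old than in young mice and 50.8% in old CR than in young mice. The old arrays and the old CR arrays each stand in 2 of these comparisons. From the same mice, but with another normalization and model, the paper lists the brightest probe sets of Nnat, Plagl1 and Peg3 as higher in old than in young mice. It lists that of H19 as lower.

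**Figure D3:**
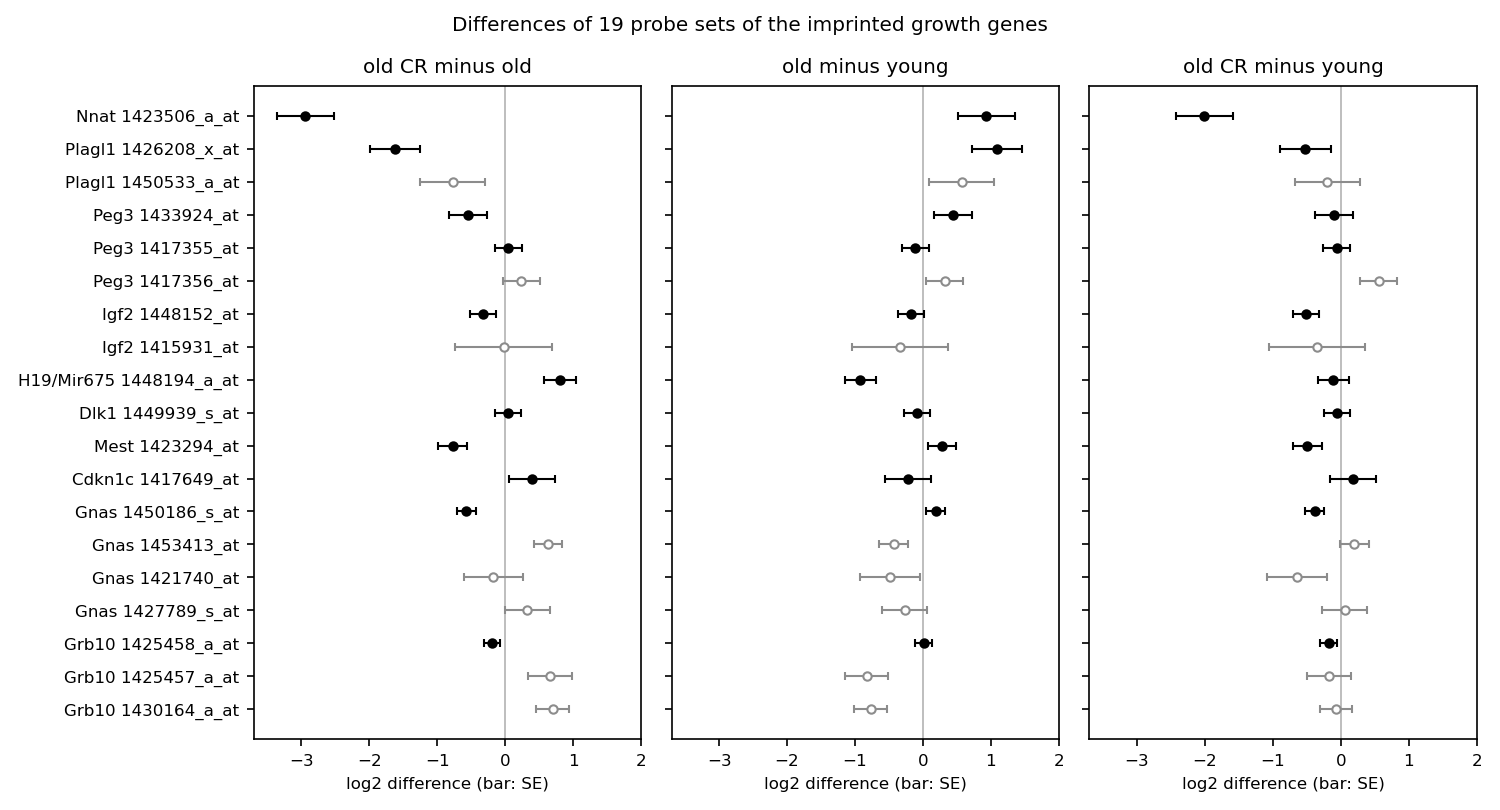
Log2 differences with their SE from limma for the 19 probe sets in old CR minus old, old minus young and old CR minus young, with dim probe sets (outside the brightest 48.1%) as open grey circles. Nnat at -2.94 and Plagl1 at -1.62 lie farthest to the left in old CR minus old, and H19/Mir675 and the dim Grb10 probe sets lie to the left in old minus young.

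A list of other imprinted genes was read in the same way, by the brightest probe set of each. Of 55 genes 41 were measured, 16 listed under the paternal and 25 under the maternal copy. Whether each of them is imprinted in muscle was not tested. None was called in old against young mice (median -0.09) or in old CR against young mice (median -0.05), and unadjusted p under 0.05 was reached by 7 and 8 of the 41, beside 15.5% and 12.1% of all probe sets. Snrpn was read from a dim probe set, at 32 ± 7.07 in old and 42.5 ± 14.9 in young mice. By its own model the paper lists another probe set, named for the Snrpn upstream reading frame and not read here, as lower in old mice. Against old mice, 1 of 41 was called in old CR mice, with a median of 0.02 beside 0.06 over all probe sets, of which 4.87% were called. This was Kcnq1, a potassium channel of the Cdkn1c cluster, at 61.4 ± 15.4 in old CR and 136 ± 56 in old mice (log2 difference -1.08, adjusted p = 0.0444). Its probe set was dim and its groups overlapped. Ube3a, a ubiquitin ligase, had 247 ± 40.2 in old CR and 405 ± 96 in old mice (-0.70, adjusted p = 0.058), Nap1l4, a histone chaperone, 2309 ± 245 and 1677 ± 331 (0.48, adjusted p = 0.0694), and Cd81, a tetraspanin, 1993 ± 134 and 1548 ± 177 (0.37, adjusted p = 0.0772). In old against young mice Kcnq1 had 136 ± 56 and 60.2 ± 7.57 (1.07, adjusted p = 0.103), Slc22a18, a membrane transporter, 78.8 ± 11.1 and 128 ± 41.9 (-0.66, adjusted p = 0.11) and Ube3a 405 ± 96 and 255 ± 65.5 (0.68, adjusted p = 0.125). The noncoding RNA Meg3, which shares a cluster with Dlk1, had 2145 ± 493.4 in old and 3054 ± 447 in young mice (-0.53, adjusted p = 0.149). Peg12, at the dim end of the array, had 5.57 ± 4.59 in old CR and 1.48 ± 0.362 in young mice (1.65, adjusted p = 0.117). The amino acid transporter Slc38a4 had 741 ± 279 in old CR and 1331 ± 278 in young mice (-0.92, adjusted p = 0.173).

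**Figure D4:**
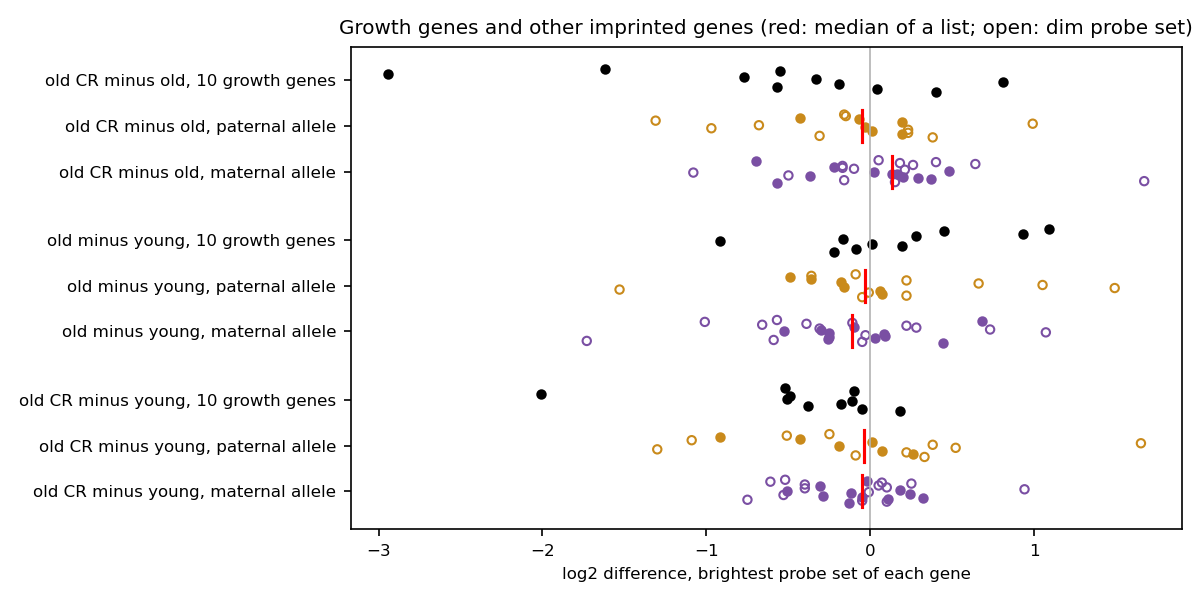
Log2 differences of the brightest probe set of each gene for the 10 growth genes (black) and for other imprinted genes listed under the paternal (orange) or the maternal copy (purple), in old CR minus old, old minus young and old CR minus young. Red lines mark the medians of the other imprinted genes and open circles dim probe sets. The other imprinted genes lie on both sides of 0 in each comparison.

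In the IGF and insulin axis, which Igf2, H19 and Grb10 act on, 17 of 18 genes were measured. None was called in either comparison with young mice, at medians of -0.04 and -0.12. Between old CR and old mice 3 fell, 0 rose and the median was 0.13, beside 2.17% of all probe sets called lower, 2.7% called higher and a median of 0.06. Igfbp5, a binding protein that muscle secretes, fell to 2850 ± 365 in old CR mice, against 7480 ± 977 in old mice (log2 difference -1.39, adjusted p = 0.00511). Igfbp7, a related binding protein, fell to 3296 ± 191, against 6343 ± 1539 (-0.91, adjusted p = 0.0197), and Igf1, the growth factor itself, fell to 341 ± 75, against 772 ± 124 (-1.19, adjusted p = 0.0303). None of the 3 overlapped between these groups. Of 20 paralogs and partners of the 10 genes, all measured, 2 fell in old CR against old mice (2.17% of all probe sets) and none passed the test in the others. These were Adcy9, an adenylyl cyclase that acts after Gnas, at 800.1 ± 196 in old CR and 1309 ± 128 in old mice (-0.75, adjusted p = 0.0322), and Hey1, a target of Notch, at 52 ± 12.3 and 101 ± 25.9 (-0.95, adjusted p = 0.0343). The Hey1 probe set was dim and its groups overlapped. Of regulators of imprints 13 of 18 were measured, with 1 lower and 1 higher in old CR than in old mice (2.17% and 2.7% of all probe sets). Trim28, the corepressor that zinc finger proteins bring to imprinted control regions, fell to 446 ± 41.9 in old CR mice, against 976 ± 169 in old mice (-1.12, adjusted p = 0.0066). Atrx, a chromatin remodeler, rose to 262 ± 65, against 127 ± 17.7 (1.01, adjusted p = 0.0123), by a dim probe set. Ctcf, which binds the Igf2 and H19 control region, had 468 ± 59.8 in old CR and 697 ± 96 in old mice (-0.58, adjusted p = 0.0599).

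Markers of other cells were read beside Nnat, since it is also expressed in fat cells. Of 8 adipocyte markers 6 were found under a gene symbol of their own, and none of the 6 was called in any comparison. Adipsin (Cfd) was among those not found. The paper lists a probe set of adipsin as higher in old mice, with the change reversed by CR. The summed level of the 6 ran between 8312 and 12558 in old CR, between 10923 and 17635 in old and between 7198 and 13868 in young mice. Their median log2 difference was -0.99 for old CR against old. Adipoq (adiponectin) had 1846 ± 688 in old CR and 4143 ± 1481 in old mice (-1.19, adjusted p = 0.0693), Lep (leptin) 52.2 ± 31.9 and 281 ± 280 (-1.90, adjusted p = 0.215) and Cidec, a lipid droplet protein, 171 ± 56.5 and 326 ± 146 (-0.89, adjusted p = 0.187). Retn (resistin) ran the other way, with 1022 ± 248 and 700.1 ± 248 (0.59, adjusted p = 0.213). Fabp4, a fatty acid binding protein that makes up most of the sum, had 8201 ± 1074 in old CR, 7688 ± 800.2 in old and 6778 ± 1583 in young mice. Adipoq ran between 813.4 and 2677 in old CR, between 2406.5 and 6196.1 in old and between 1794.1 and 4354 in young mice, and 4 of 5 old CR mice lay below every old mouse. Adipoq and Nnat were thus both lower on average in old CR than in old mice. The part of fat in the Nnat difference was not tested. Among the 7 muscle fiber markers 1 rose in old CR against old mice, the fast myosin Myh1 at 19656 ± 1552 against 13746 ± 2028 (0.52, adjusted p = 0.0297), and no other list of cell markers had a called gene in any comparison. Of all probe sets 2.7% were called higher in old CR than in old mice. All 7 fiber markers were higher there, with a median log2 difference of 0.33 (0.06 over all probe sets). All 7 were lower in old than in young mice, with a median of -0.21 (-0.06 over all).

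**Figure D5:**
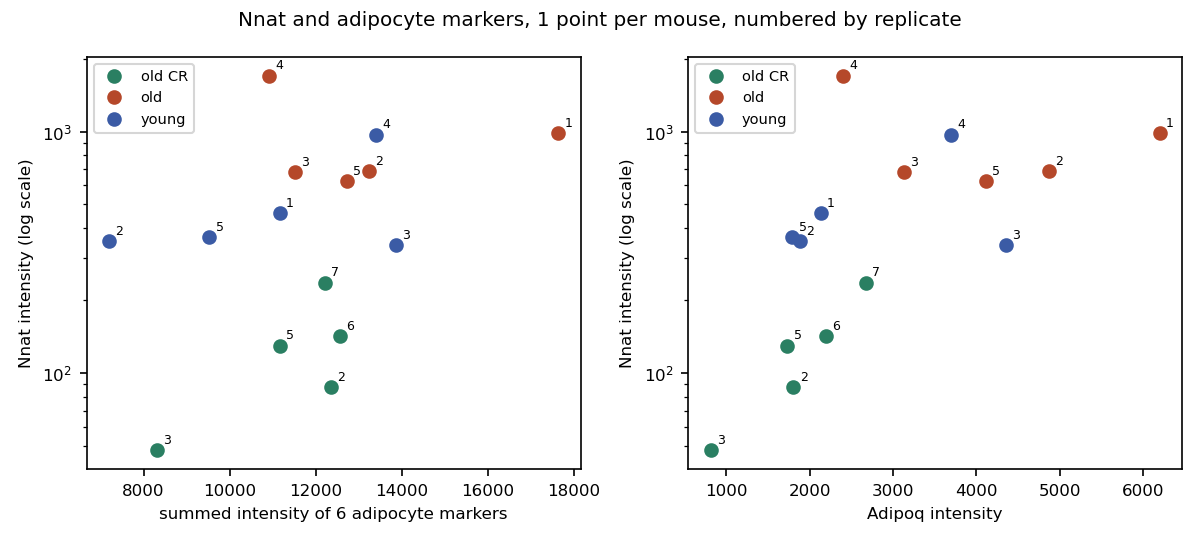
Nnat intensity (vertical, log scale) against the summed intensity of 6 adipocyte markers (left) and against Adipoq intensity (right), 1 point per mouse labelled by replicate, for old CR, old and young mice. The old CR mice lie below all others in Nnat. Their summed levels, of which Fabp4 is the largest part, overlap those of the old and young mice, and 4 of 5 of them lie below every old mouse in Adipoq.

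The probe sets most like Nnat over the 15 arrays, among 10005 bright ones with a single symbol and by Pearson's r of log2 intensity, were those of 2310061I04Rik (r = 0.95), Srp9 (0.92), Rab9 (0.91), Gtf2i (0.89) and Dctn1 (0.88). Within groups, after each group's mean was taken off, these were 0.82, 0.64, 0.63, 0.38 and 0.61. For Plagl1 they were Cpd (0.92), Ccm2 (0.90), Ube2e3 (0.89), Trip11 (0.89) and Ets1 (0.89), and within groups 0.85, 0.73, 0.79, 0.74 and 0.81. The points share arrays and group differences, and the highest values of many are given, so they are a description.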

How the data were processed

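RNA from 15 gastrocnemius muscles was hybridized to MOE430A arrays, 1 per mouse. The authors scanned each array 2 times and averaged the scans, and they deposited 1 linear intensity per probe set, scaled so that each array has a trimmed mean of 500. The submitters' processing notes name MAS5 and RMA, with no version in the sources used here. The deposited intensities were taken as log2 with no pseudocount and no further normalization. After 64 control probe sets were taken out, 1 model with the 3 groups was fitted to 22626 probe sets (limma 3.58.1, R 4.3.3, eBayes without a trend). For each comparison the p-values of all of these were corrected together (Benjamini-Hochberg), and a call means a corrected p under 0.05. Old CR was set against old, old against young, and old CR against young. The 48.1% of probe sets with the highest mean are called the brightest, and others dim.

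Named were all probe sets of the 10 genes, up to 4 genes of a list with the smallest adjusted p in a comparison, the 5 probe sets most like Nnat and Plagl1, and cell markers. The genes and lists were chosen with earlier results of these data known. Calcr stands both in the satellite cell and in the imprinted list. Gene symbols came from the platform annotation, in which 20393 probe sets have 1 symbol, 691 have several and 1606 have none. A gene of a list, H19 apart, was counted as measured only if a probe set carried its symbol alone. A gene not counted may still be on the array. Promoters and microRNAs came from RefSeq (GRCm38.p6) and were read with Python 3.11.15. Alternatives tried were centering, quantile normalization, the brightest probe sets, a floor of 50, only the groups compared, weights for arrays, a block for the replicate number, a variance trend with robust eBayes, a covariate for the 3' minus 5' control difference, an adjusted p under 0.10, the brightest probe set of each gene and leaving out each array. The fit was run on simulated data with independent noise and known changes, larger than most differences given here. It does not tell how often smaller changes would be missed. Each array is a separate mouse. The number of arrays limits the precision.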

Additional observations from a re-analysis of the deposited data

Results flagged for a closer look

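Single mice stood apart from the other 4 of their group, by the gap to the nearest one against the whole range, in 5 of the 30 groups of 5 looked at (10 genes by their brightest probe set). For independent groups of normally distributed values chance gives about 1 in 20. These are linear intensities and the groups share arrays, so no excess is read from the count. Nnat was 969.9 in young replicate 4, against 338.2 to 461 in the other young mice. The H19/Mir675 probe set was 5145.3 in old CR replicate 2, against 3801.2 to 4163.5 in the other old CR mice, and 4677.4 in old replicate 5, against 1745.8 to 2540.9 in the other old mice. In young replicate 3 Cdkn1c was 205.5, against 371.5 to 403.5 in the other young mice, and Grb10 was 1372.2, against 977.7 to 1061.7. Young replicate 3 also had the highest 3' minus 5' difference of the young mice, at 0.06.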

How the results depend on the processing

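In old against young mice the count of called member probe sets, 0 of 16, was 1 among the brightest probe sets, with a variance trend and robust eBayes, with array weights and at an adjusted p under 0.10, each time the H19/Mir675 probe set, and between 0 and 1 when each array was left out. The 1 was H19/Mir675 without old replicate 5 and a Grb10 probe set without young replicate 3. The count stayed 0 with only the groups compared, with the replicate block and with the 3' minus 5' covariate. In old CR against young mice the count was 0 under every alternative run. In old CR against old mice the 4 calls were 2 with only the groups compared, 1 with the replicate block and 0 with the 3' minus 5' covariate, and between 1 and 4 when each array was left out. It was 1 without old replicate 3, old CR replicate 5 or old CR replicate 6 and 2 without old replicate 1, old replicate 2 or old CR replicate 2. The count was 5 among the brightest probe sets and with a variance trend and robust eBayes, with H19/Mir675, higher in old CR mice, added. At an adjusted p under 0.10 it was 6, with the second Gnas probe set, also higher in old CR mice, added too. This count holds Nnat and Plagl1, which chose the set. The replicate numbers do not pair the mice: deviations of same-numbered mice correlated between -0.27 and 0.08, and 0 of 5, 1 of 3 and 0 of 3 mice correlated best with their own number.

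Several log2 differences changed sign, most of them near 0. Cdkn1c changed sign from values farther off, -0.22 in old against young and 0.40 in old CR against old in the main fit. In old against young, Dlk1 was 0.00 with centering and between -0.17 and 0.04 when arrays were left out, Cdkn1c 0.66 with the covariate and between -0.40 and 0.01, and Grb10 -0.01 with quantile normalization, -0.27 with the covariate and between -0.04 and 0.09. In old CR against young, Peg3 was 0.04 with the covariate and between -0.24 and 0.06, Dlk1 0.01 with the covariate and between -0.13 and 0.08, and Cdkn1c -0.05 with the replicate block, -0.15 with the covariate and between 0.00 and 0.38. In old CR against old, Cdkn1c was -0.80 and Grb10 0.19 with the covariate, Dlk1 was -0.05 with centering, -0.04 with quantile normalization and -0.07 with the replicate block, and Dlk1 was between -0.06 and 0.15 when arrays were left out. The covariate also moved Peg3 to -0.02 and Igf2 to -0.02 in old CR against old, and Nnat to 1.73, Plagl1 to 0.44 and Peg3 to 0.06 in old against young. The cause was not tested. In old against young mice the probe sets called in all were 60, and 603 among the brightest, 0 without young replicate 1 and 1067 without young replicate 3. Intensities of dim probe sets limit what can be read from them.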
